A study of Homo sapiens with 20 samples.

Results

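Peaks on pseudogene transcripts were taken from 4 deposited acRIP-seq peak lists by 1 rule, that the annotation field giving the transcript type contained the word pseudogene. The rule took 3092 of 495936 peaks, namely 338 in the wild type IP list, 340 in the wild type IgG list, 1272 in the knockout IP list and 1142 in the knockout IgG list. These peaks lay on the transcripts of 660 genes. The study compared K562 cells, a human erythroleukaemia line, with K562 cells in which exon 5 of NAT10 had been deleted with CRISPR-Cas9. NAT10 is an enzyme that acetylates cytidines in RNA, and the product is called ac4C. In acRIP-seq, RNA fragments of about 100 nt were pulled down with an antibody against ac4C (IP) or with normal rabbit IgG, and an input fraction was sequenced beside them. The 20 libraries also covered RNA-seq and ribosome profiling, with 2 libraries for each assay and group.

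Wild type here means the parental K562 line with no engineered change, and knockout means the NAT10-deleted line; no treatment was named for either. The labels of the knockout acRIP-seq libraries give the knockout without naming the exon. The labels do not say whether the knockout was 1 clone or a pool, or whether the 2 libraries of a group came from separate cultures. In the fits whose p-values are printed below, the knockout entered as 1 sample. Those p-values therefore rest on the spread of the 2 wild type RNA-seq libraries alone, and that spread may be technical. NAT10 RNA stood at 139 and 144 CPM (counts scaled to a common library total) in wild type and at 49.9 and 49.3 CPM in the knockout, a log2 difference of -1.51 (SE 0.09, edgeR adjusted p 0.000102). This count covers the whole gene and does not measure the deleted exon. All 10 K562 markers examined, among them GATA1, TAL1 and KLF1, exceeded 1 CPM in each RNA-seq library, with summed levels of 1881 to 2047 CPM. The 5 lymphocyte markers summed to 28.3 to 42.1 CPM, with MS4A1 at 0 in every library, and the 3 monocyte markers to 6.52 to 14.5 CPM, nearly all of it LYZ. The 5 fibroblast and epithelial markers summed to 33.9 to 51.5 CPM, nearly all of it EPCAM. RNA-seq totals were 10388717 and 12725302 counts in wild type and 18093324 and 18778485 counts in the knockout. Raw counts given below are not scaled for this difference, unlike CPM. The depth of the acRIP-seq libraries is unknown from the files used.

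Most pseudogenes are copies of genes that are annotated as no longer coding for the parent's protein. A small share of the peaks lay on types not defined by copying, namely unitary and polymorphic pseudogenes. Processed pseudogenes arose when a messenger RNA was copied back into DNA, so they lack introns, and genes that are highly expressed in the germ line, such as those for ribosomal proteins, have left many of them. Unprocessed pseudogenes arose by duplication of genomic DNA, and some are still transcribed. Because a young copy can be nearly identical to its parent, short reads can fit both. The sources used here do not say how reads that fitted several transcripts were placed. The values of near-identical copies are therefore uncertain throughout.

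Pseudogene transcripts took a larger share of the knockout lists than of the wild type lists, and the shift was as large with IgG as with the ac4C antibody. They held 0.367% of wild type IP peaks (exact 95% binomial interval 0.329 to 0.408) and 0.364% of wild type IgG peaks (0.327 to 0.405). In the knockout the shares were 0.781% for IP (0.738 to 0.825) and 0.774% for IgG (0.730 to 0.820). Each list merges its libraries, so these intervals cover counting error only and no test between groups was possible. Long noncoding RNA transcripts moved the same way, from 3.18% and 3.36% of peaks in wild type IP and IgG to 9.33% and 10.2% in the knockout. Protein-coding transcripts went from 69.9% and 70.0% to 63.4% and 63.3%. The numbers of all peaks also differed, at 92194 and 93329 in wild type and 162944 and 147469 in the knockout.

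**Figure D1:**
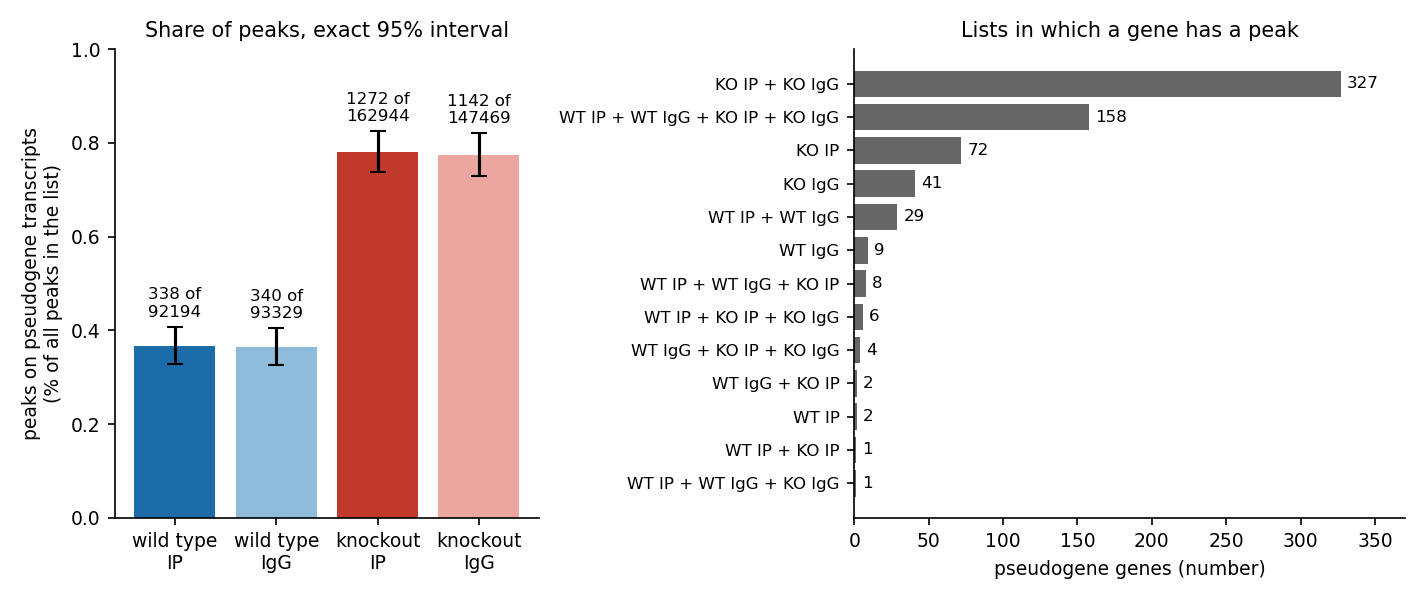
Left, percent of all peaks in each list that lay on pseudogene transcripts, with exact 95% binomial intervals; right, number of the 660 pseudogene genes with a peak in each combination of lists. Both wild type lists sit near 0.37% and both knockout lists near 0.78%, and the longest bar holds the 327 genes found in both knockout lists alone.

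By gene, 440 of the 660 had peaks in knockout lists only (66.7%), 180 in lists of both genotypes (27.3%) and 40 in wild type lists only (6.06%). Over all 19775 genes with a peak on any transcript, these shares were 48.9%, 47.0% and 4.08%. The shares of the 660 count peaks on pseudogene transcripts only, while those over all genes count peaks on any transcript. A pseudogene gene with a peak on another transcript type can thus count as absent from a list. Such peaks were held by 41 of 205 wild type IP genes and 77 of 578 knockout IP genes. RNA-seq counts are per gene and can include those other transcripts. The knockout lists also held more genes in all, 18260 and 17740 against 9658 and 9894 in wild type. The commonest pattern was a peak in both knockout lists and neither wild type list, with 327 genes. A further 158 genes had a peak in all 4 lists. In wild type, 196 of the 205 genes in the IP list and of the 211 in the IgG list were shared. In the knockout, 495 of 578 IP genes and of 537 IgG genes were shared.

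The height of a peak is given below by the authors' fold value, column 7 of the peak files, from a peak caller that the submitters' processing notes give as MACS2. In each list every fold value was a whole multiple of 1 step, within 0.05 of a step, where 10% would be at that tolerance if values were spread evenly. The step was 0.0309 in wild type IP, 0.0330 in wild type IgG, 0.104 in knockout IP and 0.142 in knockout IgG. Each distinct fold value also had exactly 1 q-value. The divisor behind the fold value was therefore the same for every peak of a list, and the value ranks summits by coverage within a list with no term that varied between transcripts. The lowest peaks called stood at 51, 48, 20 and 16 steps in the 4 lists in that order. The lowest callable fold thus differed between the lists, and the list's step and its genotype cannot be told apart.

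The median pseudogene peak was close to that of all peaks in the wild type lists and somewhat above it in the knockout lists. Fold values over 20 took a larger share on pseudogenes in the wild type lists and in knockout IgG. In knockout IP that share was near the share of all peaks. The median fold value on pseudogene transcripts was 3.85 in wild type IP and 3.97 in wild type IgG, beside 3.86 over all peaks of each list. It was 5.00 in knockout IP (95% interval of the median over peaks 4.80 to 5.21, with 4.69 over all peaks) and 5.41 in knockout IgG (5.27 to 5.69, with 4.98 over all peaks). Values over 20 were held by 48 pseudogene peaks in wild type IP (14.2%, beside 6.91% of all peaks) and by 46 in wild type IgG (13.5%, beside 6.92%). In the knockout they were held by 68 in IP (5.35%, beside 4.49%) and 88 in IgG (7.71%, beside 4.81%). The highest pseudogene value was 201 in both wild type lists, 195 in knockout IP and 611 in knockout IgG.

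The ac4C antibody and IgG gave nearly the same pseudogene peaks in wild type. Of the 338 IP peaks, 324 shared at least 1 base with an IgG peak on the same transcript (95.9%, exact 95% interval 93.1 to 97.7), and 14 did not (4.14%). Over all wild type IP peaks, 3.63% lacked an IgG partner. In the other direction, 17 of 340 IgG peaks lacked an IP partner (5.00%), beside 3.46% of all IgG peaks. None of the 14 IP peaks without a partner exceeded a fold of 3.68, and their median was 2.07 against 3.99 for the peaks with one. Several summits can share 1 called region, so this overlap counts summits by the region they lie in.

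Knockout IP and IgG lists were also close. There, 152 of 1272 IP peaks lacked an IgG partner (11.9%), beside 11.7% of all knockout IP peaks. Of 1142 IgG peaks, 70 lacked an IP partner (6.13%), beside 7.09% of all. Summits at most 100 nt apart were paired to compare heights. In wild type, 2 of 291 paired pseudogene summits differed by more than 1.5 times in fold value (0.687%), beside 0.758% of all pairs. In the knockout, 134 of 965 did (13.9%), beside 16.6% of all pairs. The median log2 ratio of IP to IgG was -0.03 in both genotypes. The pseudogene shares without a partner or with a differing height were thus near those of all peaks.

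**Figure D2:**
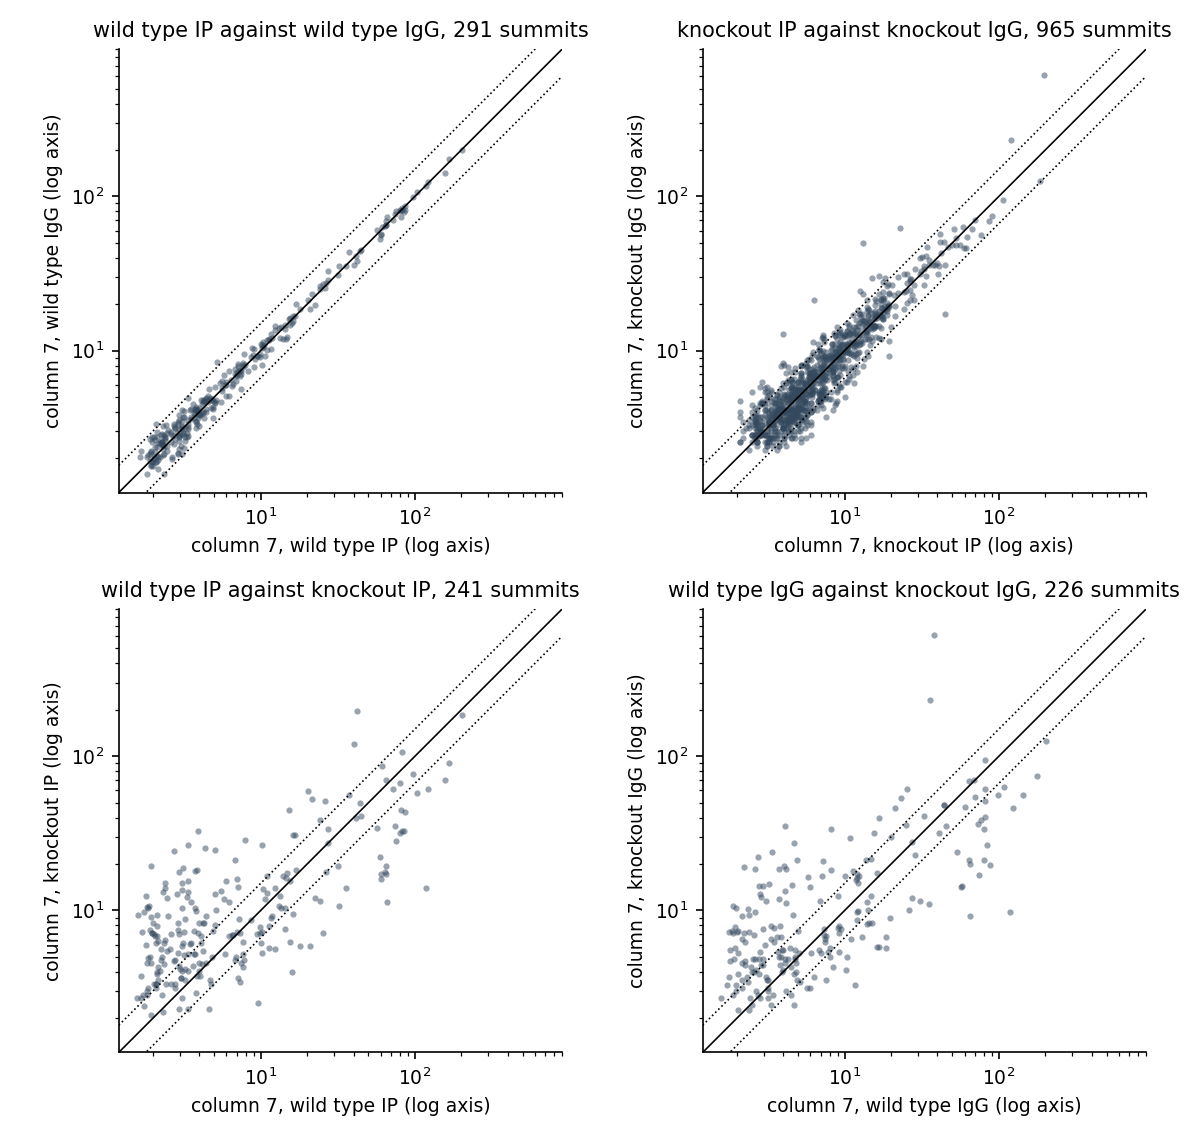
Fold value (column 7, log axes) of pseudogene summits paired within 100 nt between lists; the solid line marks equality and the dotted lines a 1.5-fold difference. Wild type IP and IgG fall on the line with 2 of 291 pairs outside the dotted lines, while 160 of 241 pairs lie outside for wild type against knockout IP.

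From knockout to wild type, and in the heights of paired summits, the genotypes differed far more than the antibodies did, with IP and with IgG. From wild type to knockout the difference was smaller. With IP the share without a partner was there near the 11.9% of knockout IP peaks that lacked an IgG partner. Of the wild type IP peaks, 37 of 338 had no knockout IP peak on a shared base (10.9%), fewer than the 23.2% over all wild type IP peaks. In the other direction 806 of 1272 knockout IP peaks had no wild type IP partner (63.4%), beside 35.8% over all knockout IP peaks. The share with a partner was 36.6% on pseudogene transcripts, 73.4% on protein-coding transcripts and 23.6% on long noncoding RNA transcripts. With IgG the same comparison left 63 of 340 wild type peaks (18.5%, beside 27.4% of all) and 710 of 1142 knockout peaks (62.2%, beside 36.7% of all) without a partner. Heights of paired summits differed by over 1.5 times for 160 of 241 pairs with IP (66.4%, beside 60.9% of all pairs) and for 140 of 226 with IgG (61.9%, beside 63.2%). The median log2 ratio of wild type to knockout fold was -0.57 with IP and -0.28 with IgG on pseudogenes, and 0.13 and 0.12 over all paired summits, which is the opposite sign.

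Processed copies had the higher median fold in each list. Processed types, which include transcribed processed pseudogenes, held 174 of the wild type IP peaks (51.5%) with a median fold of 5.78, and unprocessed types held 152 (45.0%) with a median of 2.98. In wild type IgG the counts were 179 and 150 and the medians 5.64 and 3.15. The split by number was much the same in the knockout, with processed types at 53.2% of peaks in IP and 52.6% in IgG and unprocessed types at 44.2% and 43.6%. The knockout medians were 6.05 for processed and 4.38 for unprocessed types in IP, and 7.12 and 4.56 in IgG. The transcripts also differed in length, with medians of 688 nt for processed and 1415 nt for unprocessed types in wild type IP.

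Parents were read from the pseudogene symbols by removing the final P and number, and a parent was accepted where a protein-coding transcript bore the name. This gave a parent to 60.7% of wild type IP peaks and to 61.7% of knockout IgG peaks, with the other lists at 59.4% and 60.6%. Copies of cytosolic ribosomal protein genes, which encode the protein parts of the ribosome, had a higher median fold than all peaks in each of the 4 lists. They held 37 wild type IP peaks on 29 genes (10.9%, interval 7.83 to 14.8), with a median fold of 27.5. In wild type IgG they held 37 peaks on 28 genes (10.9%), with a median of 30.9. The knockout lists had more of these peaks but at lower folds, with 85 in IP (6.68%, median 10.3) and 89 in IgG (7.79%, median 11.0). Copies of translation factor genes held 13, 12, 31 and 29 peaks in wild type IP, wild type IgG, knockout IP and knockout IgG. Their medians were 16.1, 19.4, 7.92 and 11.0 in that order.

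Smaller groups had few peaks. Copies of genes for hnRNP and splicing proteins, which bind and process pre-mRNA, held 10 wild type IP peaks (median 4.39) and 32 knockout IP peaks (median 9.64). Copies of mitochondrially encoded genes held 6 and 10 peaks in wild type IP and IgG and 20 and 16 in the knockout, with medians between 2.64 and 5.47. Chromatin protein copies, such as HMGB1P5, held 2 peaks in each wild type list and 8 and 7 in the knockout lists. Cytoskeleton copies had no wild type peak, which allows a share of up to 1.09% in IP, and had 8 and 4 peaks in knockout IP and IgG. Glycolysis copies likewise had none in wild type and 2 in each knockout list. Chaperone copies held 1 peak in each wild type list and 7 and 6 in the knockout, and ferritin copies held 1 in each wild type list and 4 and 2 in the knockout.

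The single parent with the most pseudogene peaks was PKD1 in each list. Copies of PKD1, the polycystin 1 gene, held 27 and 24 peaks in wild type IP and IgG and 117 and 124 in knockout IP and IgG. PKD1 itself had no peak on a protein-coding transcript in either wild type list and 55 and 56 in the knockout lists. Its copy with the highest wild type IP value, PKD1P1, reached only 4.23 there and 3.92 in wild type IgG, against 11.2 and 13.5 in the knockout. Copies of HERC2, a large ubiquitin ligase, held 16, 16, 39 and 28 peaks in the same order. HERC2P2 led them at 10.5 and 10.8 in wild type IP and IgG, above HERC2 itself at 4.54 and 5.01. In the knockout it stood at 11.5 and 6.83, below HERC2 at 11.8 and 11.2. Copies of SMG1, a kinase of nonsense-mediated decay, held 4 and 3 peaks in wild type IP and IgG and 48 and 49 in knockout IP and IgG. Other copies had low folds that were higher in the knockout. ABCB10P4, a copy of a mitochondrial transporter gene, stood at 4.08 and 3.86 in wild type IP and IgG and 6.78 and 6.69 in the knockout. GTF2IP4, a copy of the transcription factor gene GTF2I, stood at 4.42 and 4.85 against 6.15 and 5.41. PHF2P2, a copy of a histone demethylase gene, stood at 3.09 and 3.50 against 10.3 and 6.97.

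Most parents carried peaks of their own, and these were usually higher. In wild type IP, 78 of 88 parents had a peak on a protein-coding transcript, and the highest pseudogene peak exceeded the highest parent peak in 5 of them. The median log2 ratio of pseudogene to parent was -1.65 in wild type IP, -1.70 in wild type IgG, -1.19 in knockout IP and -1.23 in knockout IgG. In the knockout lists the pseudogene exceeded the parent in 33 of 180 pairs with IP and 27 of 173 with IgG. All 18 ribosomal protein parents had a peak in each wild type list, always above the copy. Among ribosomal protein parents, RPS2 alone was exceeded by a copy in the knockout lists. RPS2P5 stood at 201 in both wild type lists, below RPS2 at 276 and 267. In the knockout it stood at 184 and 126 in IP and IgG, above RPS2 at 79.8 and 93.9.

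Summits on pseudogenes lay more often in the middle of the transcript than summits over all transcripts did. With the transcript cut into 3 equal parts, the middle part held 44.4% of pseudogene summits in wild type IP (37.2% over all summits), 44.1% in wild type IgG (36.5%), 37.7% in knockout IP (34.8%) and 38.4% in knockout IgG (34.7%). On processed types the middle part held 50.0% and 50.8% in wild type IP and IgG and 40.2% and 40.6% in knockout IP and IgG. On unprocessed types it held 36.8% and 35.3% in wild type and 34.5% and 35.3% in the knockout. The first of 10 equal bins held 1.78% of wild type IP summits on pseudogenes, beside 4.75% of all summits. The median position, counted from 0 at the 5′ end to 1 at the 3′ end, was 0.50 in wild type IP, 0.51 in wild type IgG, 0.50 in knockout IP and 0.50 in knockout IgG. In wild type the called region often spanned most of the copy, with a median of 56.4% of the transcript in IP and 57.1% in IgG. The knockout medians were 26.9% and 24.4%. Between 8 and 33 peaks per list ended past the annotated length of their transcript, as on AC010970.1, whose transcript is 1848 nt and whose knockout IP region ended at 2044.

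**Figure D3:**
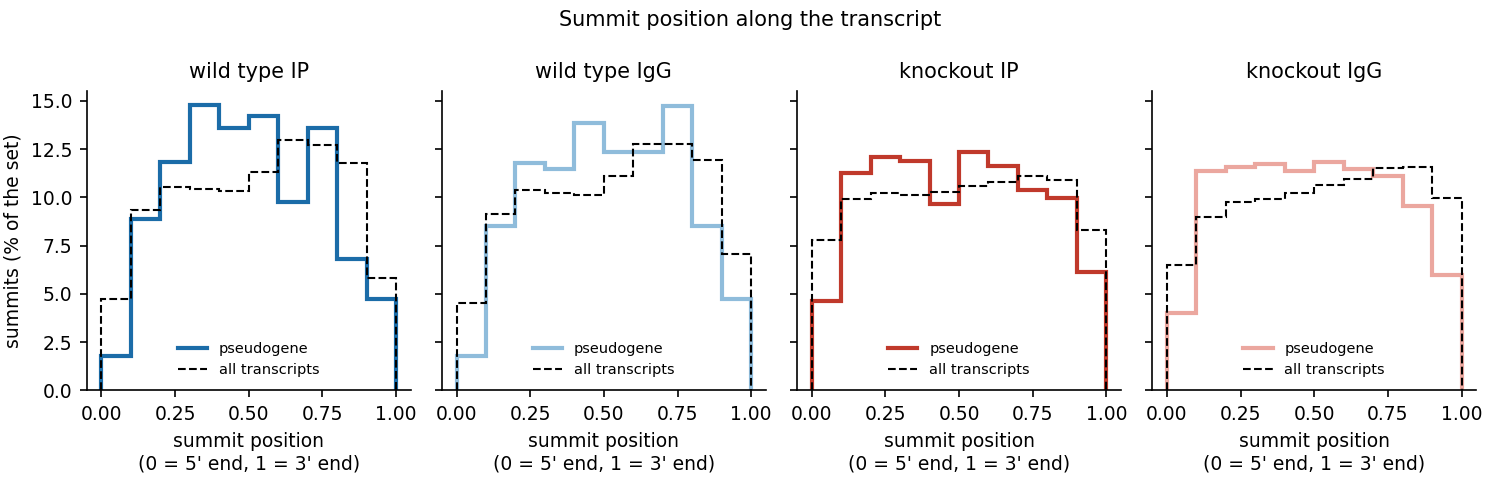
Percent of summits in each of 10 equal bins of the transcript, from the 5′ end (0) to the 3′ end (1), for pseudogene transcripts (solid) and all transcripts (dashed) in each list. The bins at both ends are the lowest for pseudogenes in every list, and the first holds 1.78% of pseudogene summits in wild type IP.

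The highest individual peaks recurred across antibodies and mostly across genotypes. RPS2P5 (ENSG00000240342.3), an 879 nt processed copy of the small-subunit protein gene RPS2, had its wild type IP summit at base 240 in a region from base 37 to 770. The IgG summit lay at the same base, and the knockout summits lay at bases 266 and 268. RPL23AP42, a copy of the large-subunit protein gene RPL23A, had fold values of 121 and 124 in wild type IP and IgG and 61.0 and 46.0 in the knockout. AC243919.1 followed with 167 and 176 in wild type and 90.9 and 74.2 in the knockout, and AC008038.1 with 157 and 143 against 70.5 and 56.1. For all 4 of these genes the knockout values were the lower ones in both antibodies.

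EEF1A1P6 (ENSG00000233476.3), a copy of the gene for elongation factor EEF1A1, stood at 82.1 and 81.7 in wild type IP and IgG and at 106 and 94.9 in the knockout. Its knockout values were thus the higher ones. EEF1A1P5, a copy of the same gene, stood at 104 and 108 in wild type and at 86.9 and 70.3 in the knockout, where its values were the lower ones. AC010970.1, a processed pseudogene with no parent in its symbol, had the largest knockout values. It went from 42.1 and 38.2 in wild type IP and IgG to 195 and 611 in the knockout, so its IgG value there was above its IP value. The HNRNPA1 copy HNRNPA1P7 stood at 35.5 and 35.2 in wild type and 24.4 and 18.5 in the knockout.

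Peaks that only the ac4C antibody gave in wild type were few and low. Absence of a gene here again means no peak on a pseudogene transcript, while shares of all genes count any transcript. Of the 205 genes in the wild type IP list, 9 had no wild type IgG peak (4.39%), beside 2.23% of all genes in that list. In the other direction 15 of 211 wild type IgG genes had no wild type IP peak (7.11%, beside 4.56% of all). Of the 9, 3 also lacked a knockout IgG peak (1.46% of the 205, beside 0.642% of all genes in the list). RPL23AP60, another RPL23A copy, had 1 peak at 3.59 and was absent from the knockout IP list. AHSA2P, related to an activator of the chaperone HSP90, had 1 at 2.26 and was likewise absent from it. PVRIG2P had 2 wild type IP peaks, the higher at 1.61, and 1 in the knockout IP list at 2.71. The lowest callable wild type IP value was 1.58. RNA-seq counts of RPL23AP60 and PVRIG2P were 0 in all 4 libraries. Those of AHSA2P were 504 and 456 in wild type and 846 and 906 in the knockout, not scaled for the higher knockout totals.

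Of the 205 wild type IP genes, 32 had no knockout IP peak (15.6%, beside 8.59% of all genes in the list), and of the 211 wild type IgG genes, 48 had no knockout IgG peak (22.7%, beside 11.8% of all). Among the 32, the 5 highest were also in the wild type IgG list and in neither knockout list, by peaks on pseudogene transcripts. FABP5P7, a copy of a fatty acid binding protein gene, stood at 9.21 and 8.77 in wild type IP and IgG. HBBP1, a pseudogene of the beta-globin cluster, stood at 8.96 and 9.30, and its RNA did not pass the test (log2 difference 0.00, SE 0.42). AC106795.1 stood at 8.28 and 7.35, and MTX1P1 at 4.88 and 3.63. LINC00339, named as a noncoding RNA gene, stood at 5.47 and 6.17 on a transcript typed as pseudogene. All 5 genes thus had wild type peaks with IgG as well as with the ac4C antibody.

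Fold values of pseudogenes followed their RNA-seq level only weakly. Across genes, Spearman's rho between the highest fold value and the mean CPM of the same genotype was 0.24 over 205 genes in wild type IP, 0.23 over 211 in wild type IgG, 0.11 over 578 in knockout IP and 0.08 over 537 in knockout IgG. These are descriptions across genes, which are not replicates. Many genes with peaks had almost no counts in RNA-seq. In wild type RNA-seq, 36 of the 205 wild type IP genes had 0 counts in both libraries (17.6%), as had 210 of the 578 knockout IP genes (36.3%). Of the 440 genes found in knockout lists only, 197 had 0 wild type counts (44.8%) and 178 had 0 knockout counts (40.5%). For the knockout acRIP-seq libraries the processing notes name Bowtie2 as the only aligner. For the others they name both STAR and Bowtie2 without saying which assay each served. The effect of the aligner on such genes was not tested.

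**Figure D4:**
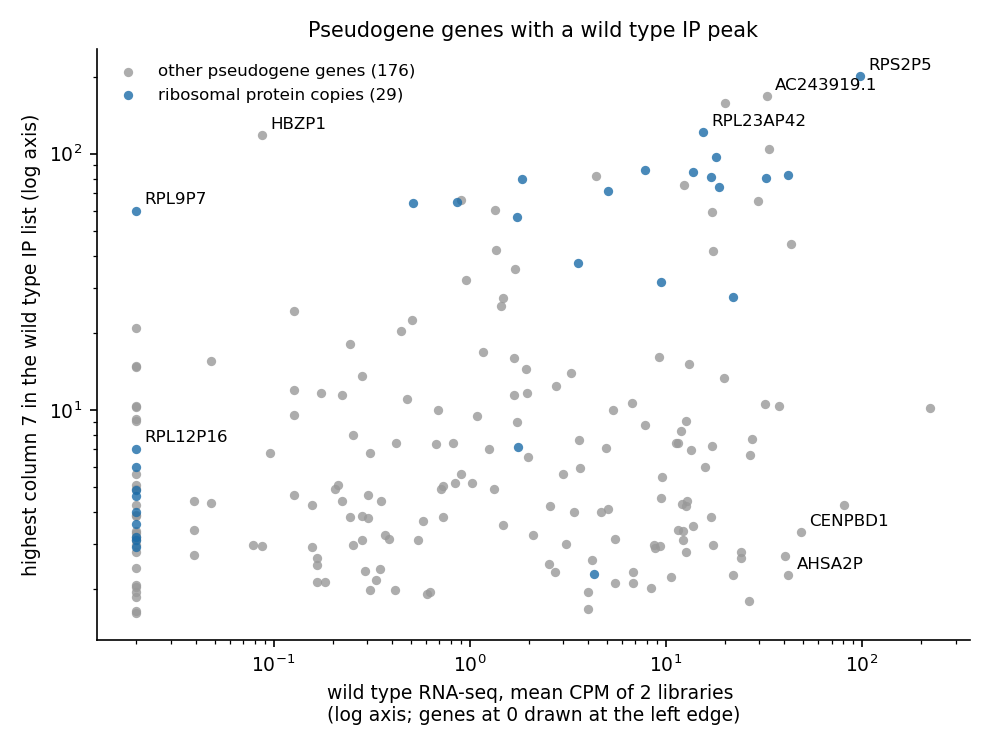
Highest wild type IP fold value of each of 205 pseudogene genes against its mean wild type RNA-seq level in CPM (log axes), with ribosomal protein copies in blue and genes at 0 CPM at the left edge. RPS2P5 is high on both axes, while HBZP1 and RPL9P7 have high fold values with 1 count in each wild type library and 0 counts.

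HBZP1, the pseudogene beside the embryonic zeta-globin gene HBZ, combined a very high fold with almost no counts. Its fold value was 118 in wild type IP and 117 in wild type IgG, with 1 RNA-seq count in each wild type library. In the knockout it was 14.0 with IP and 9.82 with IgG, with 5 and 4 counts. HBZ itself had a peak at 280 in wild type IP and 289 in IgG, and at 41.7 and 27.3 in the knockout. HBZ RNA went the other way, from 57.9 and 59.3 CPM in wild type to 242 and 244 CPM in the knockout (log2 difference 2.05, SE 0.07, edgeR adjusted p 1.6e-05). RPL9P7, a ribosomal protein copy, had a fold of 60.0 in wild type IP with 0 counts in both wild type libraries. HBZP1 and RPL9P7 were singled out after their values were seen.

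At the RNA level most pseudogene genes gave too few counts to test, and few of the rest were called as changed. In these bulk libraries, fewer cells with an RNA and less of it per cell cannot be told apart. Of the 660 genes, 241 passed the filter on low counts. A change was called for 16 of them (6.64%), beside 14.0% of all 16277 genes tested, at an adjusted p below 0.05 in edgeR's quasi-likelihood test. Those that rose numbered 8 (5.17% of all genes rose) and those that fell numbered 8 (8.79% of all genes fell). The median log2 difference was -0.02 over the 241 and -0.00 over all genes tested. Shares called were not compared at matched counts, and low counts lower the power to call a change. DESeq2 called 3 of the 16, namely ASNSP1, RPL3P4 and GRAMD4P8, so the other calls rest on 1 tool. The 2 knockout libraries differed by 1.03 times counting noise, against 12.5 times for the wild type pair, and were therefore summed and counted as 1 sample.

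Among genes that fell, ASNSP1, a copy of the asparagine synthetase gene ASNS, went from 18.0 and 16.8 CPM in wild type to 4.97 and 4.63 CPM in the knockout. Its log2 difference was -1.85 (SE 0.18, adjusted p 0.000854, edgeR), and its wild type peaks at 2.97 and 3.53 had no knockout counterpart. ASNS itself did not pass the test, at 8.66 and 8.25 CPM against 8.18 and 9.16 CPM. RPL3P4 went from 14.5 and 21.6 CPM to 8.73 and 9.21 CPM (log2 difference -1.02, SE 0.25). Its parent RPL3 also fell, with a log2 difference of -0.76 (SE 0.12, edgeR adjusted p 0.00528). RNA5SP202 and RNA5-8SP6, copies of genes for small ribosomal RNAs, fell by 2.33 and 2.02 on the log2 scale, both from under 4 CPM. AC005912.1 fell by 0.94, PKD1P6 by 0.87, GTF2IP4 by 0.79 and AL590867.2 by 0.72.

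Among genes that rose, GRAMD4P8, a processed copy of GRAMD4, went from 0.385 and 0.314 CPM in wild type to 3.26 and 3.62 CPM in the knockout. Its log2 difference was 3.29 (SE 0.44, adjusted p 0.00304, edgeR), with peaks in the knockout IP list alone, the higher at 3.02. GRAMD4P3 rose by 2.07 on the log2 scale, from 0.963 and 0.943 CPM to 3.70 and 4.31 CPM, and had knockout peaks at 16.6 with IP and 30.5 with IgG. GRAMD4 itself did not pass the test, at 106 and 97.5 CPM in wild type and 96.1 and 99.5 CPM in the knockout. RPL21P75 rose by 1.49 while its fold values were 64.6 and 65.1 in wild type and 17.3 and 20.1 in the knockout. RPL21P75 lost its call without knockout library 1 (adjusted p 0.148 in edgeR). PES1P1, a copy of a ribosome biogenesis gene, rose by 1.13, HERC2P3 by 0.59, and SBDSP1, a copy of the ribosome maturation gene SBDS, by 0.54. The remaining calls were ABCB10P1, which rose by 0.48, and PPIAP22, which rose by 0.37. Of the parents, SBDS had a log2 difference of 0.40 (SE 0.07) and ABCB10 of 0.32 (SE 0.08), in the direction of their copies. The values were smaller for PES1 (0.08, SE 0.07) and HERC2 (0.12, SE 0.08), and RPL21 had -0.14 (SE 0.13). HERC2P3 lost its call without knockout library 2 (adjusted p 0.0578 in edgeR). In all 12 genes named for RNA the libraries of the genotypes did not overlap, as the choice of these genes required.

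**Figure D5:**
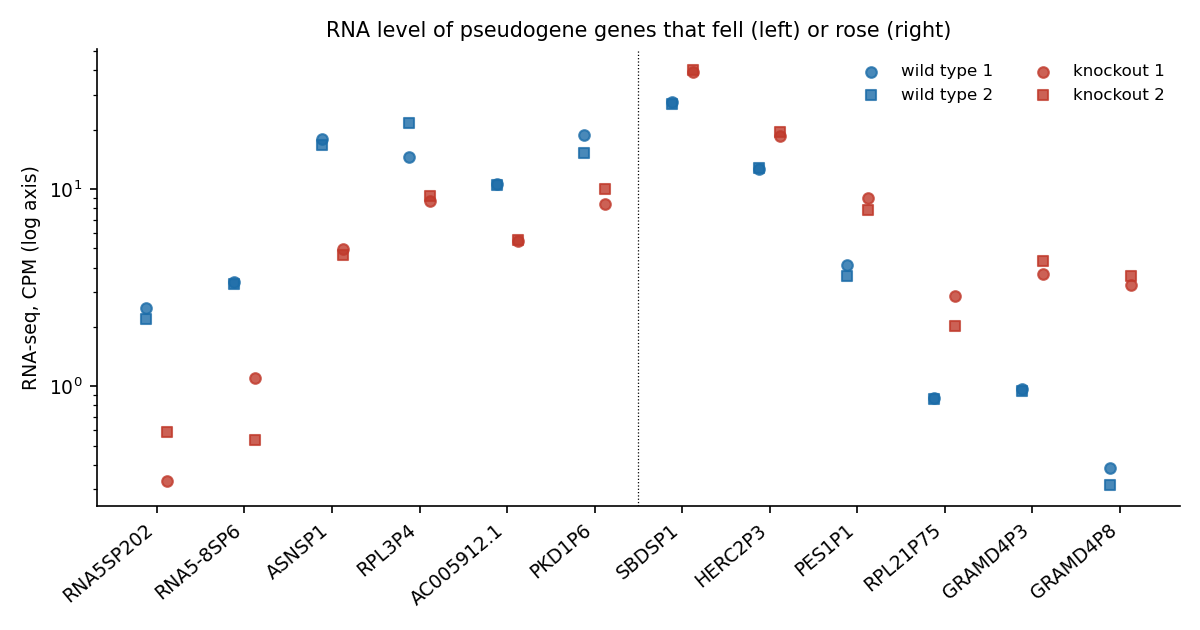
RNA-seq level in CPM (log axis) of the 12 pseudogene genes named for their RNA, with 2 wild type libraries in blue and 2 knockout libraries in red; genes that fell are left of the dotted line and genes that rose are right of it. GRAMD4P8 moves from 0.385 and 0.314 CPM to 3.26 and 3.62 CPM, and the 2 knockout points nearly coincide for most genes.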

How the data were processed

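The authors deposited 1 merged peak list per antibody and genotype, on transcript coordinates, with transcript type, symbol and length in the name field. The submitters' processing notes name build GRCh38.p13 and, without versions or roles, Bowtie2, MACS2, bedtools and ChIPseeker, and for all but the knockout acRIP-seq libraries also cutadapt, Trimmomatic, STAR, SAMtools, featureCounts and DESeq2. In the deposited lists column 7 is a fold ratio and column 9 is −log10 q per peak; the score in column 5 of the deposited lists was not used. The sources used here do not say how input entered. Both lists of a genotype have the same labelled input. RNA-seq and footprint files hold gene counts deposited by the authors. Of 60616 gene identifiers, 44 second copies of the shared sex-chromosome genes were left out.

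Positions are 1-based. Counts were tested with edgeR 4.0.16 (R 4.3.3; TMM, filterByExpr, quasi-likelihood, Benjamini-Hochberg over all genes tested), with 1 residual degree of freedom, and with DESeq2 1.42.0 as an alternative. SE is the standard error of the log2 difference. The scripts were tested on simulated data. Shares carry Clopper-Pearson intervals. Named genes were the 4 highest folds per list with −log10 q of at least 5; the highest copy of the 8 parents with most wild type IP peaks; the 5 highest wild type IP genes without IgG peaks (3 existed) or without a knockout IP peak; the 4 with the highest lowest fold in all lists; and the 6 largest called RNA rises and falls whose libraries did not overlap and whose mean log2 CPM was 0 or more. Further genes are parents, or were named after their values were seen. The members and lists were chosen with earlier results of these data known.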

Additional observations from a re-analysis of the deposited data

Results flagged for a closer look

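CENPBD1 had 35 ribosome footprint counts over the 4 Ribo-seq libraries, which the comparisons above do not use, with 13 and 5 in the knockout and 11 and 6 in wild type. Its only peaks of the set lie on a transcript typed as a transcribed unitary pseudogene, with the highest fold at 3.34 in wild type IP, 2.94 in wild type IgG, 12.2 in knockout IP and 14.4 in knockout IgG. The other 4 pseudogene genes in the footprint table (SIGLEC16, PTCHD3, AKR7L and OR9H1P) had 0 counts in each library. The RNA-seq counts of CENPBD1 were 551 and 565 in wild type and 1002 and 1025 in the knockout, not scaled for the higher knockout totals. No control sample for ribosome footprints was used, and 35 is above the 3 counts that a count of 0 allows.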

How the results depend on the processing

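With 1 peak per gene, the pseudogene share was 2.12%, 2.13%, 3.17% and 3.03% of genes in wild type IP, wild type IgG, knockout IP and knockout IgG, and the median fold 5.07, 4.91, 6.93 and 7.40, which puts wild type IP above IgG where all peaks put it below. The ribosomal protein share was then 9.86% and 11.0% in knockout IP and IgG. With a −log10 q of at least 5 the median fold was 5.53 and 6.12 in knockout IP and IgG. With a fold of at least 5, a setting added after the data were seen, the pseudogene share there was 0.855% and 0.866%. Requiring reciprocal overlap of at least 50%, shares with a partner in the other antibody were 91.1% and 91.2% (wild type IP and IgG) and 71.7% and 77.8% (knockout), and in the other genotype 62.1% and 23.6% (IP, wild type and knockout) and 51.8% and 22.2% (IgG). With summits at most 100 nt apart, also added after the data were seen, these shares were 86.1%, 85.6%, 75.9% and 84.8%, and 71.3%, 19.4%, 66.5% and 20.7%. Counting any peak on the same gene gave 92.5% and 96.7% between antibodies in knockout IP and IgG. Between genotypes it gave 46.5% of knockout IP, 85.9% of wild type IgG and 47.1% of knockout IgG peaks.

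The number of pseudogene genes called in RNA was 16 in the main fit, with 8 up and 8 down. It was 32 of 482 tested (16 and 16) without a filter on low counts, beside 9.51% of all genes. With DESeq2 it was 3 of 241 (1 and 2), beside 6.40% of all genes. It was 44 of 241 (21 and 23) with all 4 libraries kept apart, beside 34.1% of all genes. In that fit the nearly identical knockout pair counts as replicates. With a replicate block added it was 40 of 241 (17 up and 23 down), beside 31.1% of all genes. The same-numbered libraries share only a number, since their deviations from the group means had r = -0.02 over 16277 genes. Leaving out 1 library gave 15 to 74 calls, 6 to 31 up and 8 to 49 down. The high ends, 74 without wild type library 1 (25 up, 49 down) and 58 without wild type library 2 (31 up, 27 down), lean opposite ways and kept the knockout pair apart, and they assume that the lone wild type library varies as that pair does. RPL21P75 had an adjusted p of 0.0506 with RLE scaling in edgeR. With 1 residual degree of freedom, and an unknown depth for acRIP-seq, small differences on these copies could not be resolved.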

Other observations

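Some genes with high peaks in the knockout lists alone had RNA in both genotypes. AP001324.1, a processed pseudogene, reached a fold of 46.5 in knockout IP and 46.7 in knockout IgG and had no wild type peak. Its RNA-seq counts were 588 and 876 in wild type and 837 and 911 in the knockout. AC034236.1 reached 41.3 and 57.1 in the knockout lists, with 127 and 206 wild type counts and 166 in each knockout library. RPS28P7, a copy of the small-subunit protein gene RPS28, reached 41.9 and 42.8, with 60 and 55 wild type counts and 72 and 80 knockout counts. The counts in this paragraph are not scaled for the higher knockout totals. These 3 genes were picked after their values were seen, and the cause of the absent wild type peaks was not tested.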
